A study of Mus musculus with 9 samples.

Results

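Kidney cortex of mice that combined a deletion of Vhl in the proximal tubule with streptozotocin (STZ) diabetes (VHLΔPT/STZ) was compared with that of untreated control mice (con). The comparison used 5 of the 9 sequenced libraries, 2 of VHLΔPT/STZ and 3 of con, and covered 14437 genes with a mean normalized count of at least 10 out of 18657 in the table. The con mice were male, Vhl fl/fl, without Cre, and received citrate buffer. The VHLΔPT/STZ mice were male, Vhl fl/fl with the Slc5a2-cre transgene (Sglt2-Cre), and received STZ at 100 mg/kg into the peritoneum on 2 consecutive days at 12 weeks of age. Both groups were on a mixed C57BL/6/FVB background and carried the floxed allele, and cortex was taken 10 weeks after STZ. The other 4 libraries were 2 of VHLΔPT (the deletion without STZ) and 2 of con/STZ (STZ without Cre), and they entered the fit for the shared spread and the direct comparisons. Each library was made from poly(A) RNA pooled from 2 mice, so that every p-value here measures the spread between pools, not between mice. Cre under the Sglt2 promoter acts mainly in the early segments of the proximal tubule and the deletion is mosaic, so that whole cortex mixes deleted cells with all other cells of the tissue.

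VHL is the substrate receptor of a ubiquitin ligase that marks the alpha subunits of hypoxia-inducible factor (HIF) for degradation when oxygen is present. Without VHL, HIF accumulates and drives glycolysis, glucose uptake and growth factor genes. STZ destroys the beta cells of the pancreas, and the high filtered glucose that follows loads the transporters of the proximal tubule and of the segments behind it.

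Vhl (chromosome 6 from 113623959 to 113631633, GRCm38), the targeted gene, had normalized counts of 555, 522 and 528 in con and of 516 and 516.5 in VHLΔPT/STZ, against 434 and 469.8 in VHLΔPT and 501 and 527 in con/STZ. The log2 change of VHLΔPT/STZ against con was -0.05 (standard error 0.09, adjusted p = 0.770), so that the deletion was not seen in the Vhl value of whole cortex, which counts reads of every exon from all cell types. The values are quantile normalized and every library sums to between 21951722 and 21952234, so that read depth is unknown. Of the variance, 39.3% lay on the first principal component, which separated the pair of VHLΔPT/STZ libraries widely, at 4.14 and 33.5, with the con libraries at -36.3 to -26.4 and con/STZ at 40.7 and 41.5. Values also varied with gene length: the correlation across genes of log10 length with the deviation of a library from the gene mean was -0.455 to -0.19 in con, 0.184 in VHLΔPT/STZ 1 and -0.057 in VHLΔPT/STZ 2. In VHLΔPT it was 0.212 and 0.188, and in con/STZ 0.257 and 0.269. Library 2 of con/STZ held the X-inactivation transcript Xist at 3205, against at most 6.22 elsewhere, although all mice were labelled male. Slc34a1, which marks the proximal tubule as its sodium-phosphate cotransporter, was between 110088 and 154892 in all 9 libraries, while markers of skeletal muscle summed to at most 26.1.

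Called genes are those that differed by over 1.5-fold with an adjusted p below 0.05, where p came from limma on log2(normalized count + 1) over all 9 libraries with Benjamini-Hochberg adjustment. In VHLΔPT/STZ against con, 146 genes were called (1.01% of those tested), 100 higher (0.693%) and 46 lower (0.319%). Without the fold limit, 202 genes passed (1.4%), 135 higher (0.935%) and 67 lower (0.464%). Before adjustment, p was below 0.05 for 1817 genes that stood higher (12.6%) and 1763 that stood lower (12.2%). Values of the groups did not overlap for 2736 genes that stood higher (19%) and 2948 that stood lower (20.4%). The calls were unstable: 1 gene was called without con 1, 5 without con 2 and 3 without con 3. Far fewer than 146 were also called without VHLΔPT/STZ 2 or without any 1 of the VHLΔPT or con/STZ libraries. Leaving out a VHLΔPT or con/STZ library keeps the log2 changes against con and alters only the estimate of spread. Without VHLΔPT/STZ 1, 421 were called, of which 90 were among the 146. The genes called higher were long, with a median of 10744 exon bases against 4307 over all genes tested, and those called lower short (2178.5), and with the length trend of each library subtracted 2 genes were called. Of the 146, only Azgp1 was also called with the length trend subtracted, and all but Azgp1 and Slc8a1 lost the call in at least 7 of the 9 fits that left out a library.

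**Figure D1:**
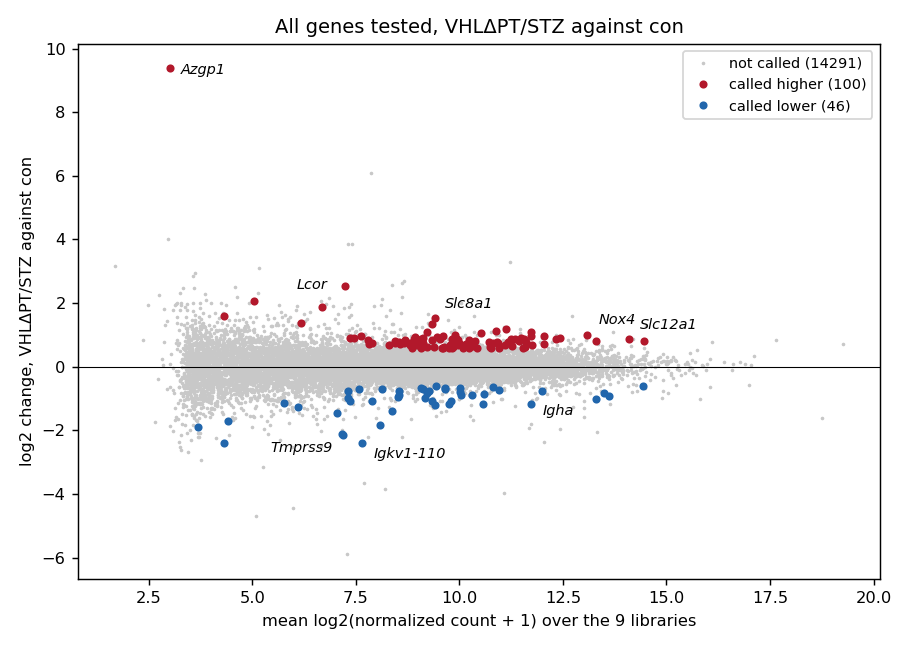
Change of every tested gene in VHLΔPT/STZ against con (y axis, log2) over its mean log2(normalized count + 1) in the 9 libraries (x axis), with the 100 genes called higher in red, the 46 called lower in blue and all others in grey. Azgp1 lies alone at a log2 change of 9.38, and the next called gene, the predicted gene model Gm38394, at 2.54.

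**Figure D2:**
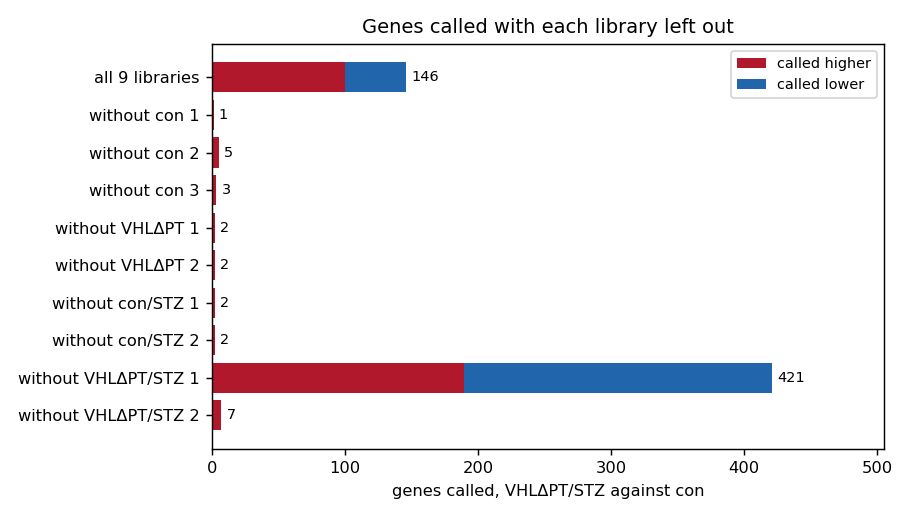
Number of genes called in VHLΔPT/STZ against con (x axis) with all 9 libraries and with each library left out in turn (y axis), split into higher (red) and lower (blue). The count of 146 drops to between 1 and 7 without any single library except VHLΔPT/STZ 1, without which it is 421.

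Azgp1 set VHLΔPT/STZ apart from all other libraries. It encodes zinc-alpha-2-glycoprotein, a secreted protein with the fold of an MHC class I heavy chain that is known as an adipokine promoting lipid breakdown. Azgp1 (ENSMUSG00000037053) lies on chromosome 5 from 137981520 to 137990233 on the plus strand of GRCm38, with 4 exons in its full-length transcript and 1610 exon bases, and no other annotated gene overlaps it. Its normalized counts were 0.11, 1.11 and 2.00 in con, 0.67 and 0 in VHLΔPT, 3.00 and 1.00 in con/STZ, and 1199 and 1358 in VHLΔPT/STZ. The gene was thus near the floor of the table in 7 libraries and high in both pools of the combined group. The value of 0.11 in con 1 is the lowest that library holds, shared by 1202 genes, since con 1 has no zeros where each other library has 537 to 944.

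The log2 change of Azgp1 was 9.38 against con (standard error 0.56, adjusted p = 0.000848), 8.82 against con/STZ (standard error 0.62, adjusted p = 0.00312) and 9.95 against VHLΔPT (standard error 0.62, adjusted p = 0.00112), with limma on the log2(normalized count + 1) scale. Since the controls are near 0, the size of this change depends on the pseudocount, and with a pseudocount of 10 it was 6.86 against con. It was the only gene called against con/STZ, of 14437 tested (0.00693%), and the only gene called against VHLΔPT (0.00693%). With an unadjusted p below 0.05, 446 genes stood higher (3.09%) and 511 lower (3.54%) against con/STZ, and 744 higher (5.15%) and 849 lower (5.88%) against VHLΔPT. Against con, Azgp1 passed in all 9 fits that left out a library, with adjusted p from 0.00245 to 0.0480, and with the length trend subtracted (9.58, adjusted p = 0.000666). Against con/STZ its adjusted p was 0.123 without VHLΔPT/STZ 1 and 0.0537 without VHLΔPT/STZ 2, and against VHLΔPT it was 0.0614 without VHLΔPT/STZ 2. Over the whole table of 18657 genes, it was the only gene whose lower VHLΔPT/STZ value stood at least 2-fold above the highest of the other 7 libraries, or whose higher one stood at least 2-fold below the lowest of them, on normalized count + 1 and with a level of at least 10. That ratio was 300 for Azgp1.

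No gene near Azgp1 passed with it. Of 61 genes of the table within 1000000 bases on either side, 46 were tested and 0 passed, with log2 changes from -1.10 to 1.15 and a smallest adjusted p of 0.0535 (limma). To show the sequence in front of this gene beside that of 3 genes that rose far less, the 250 bases before the RefSeq start site are printed 5′ to 3′ for Azgp1 (chr5:137981271-137981520, plus strand), Lcor (chr19:41482432-41482681, plus strand), Slc8a1 (chr17:81738388-81738637, minus strand) and Slc12a1 (chr2:125152350-125152599, plus strand), from RefSeq on GRCm38.p6. Capitals mark the core of the HIF response element, ACGTG or GCGTG, read on either strand.
Azgp1: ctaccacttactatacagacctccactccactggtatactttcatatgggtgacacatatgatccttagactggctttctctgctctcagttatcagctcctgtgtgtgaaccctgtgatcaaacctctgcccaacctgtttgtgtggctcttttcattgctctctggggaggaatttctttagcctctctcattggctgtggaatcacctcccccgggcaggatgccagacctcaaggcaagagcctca
Lcor: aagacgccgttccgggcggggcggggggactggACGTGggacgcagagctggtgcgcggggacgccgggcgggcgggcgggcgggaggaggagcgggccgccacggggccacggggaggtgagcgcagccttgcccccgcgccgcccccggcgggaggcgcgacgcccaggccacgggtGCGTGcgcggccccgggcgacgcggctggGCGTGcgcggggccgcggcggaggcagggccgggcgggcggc
Slc8a1: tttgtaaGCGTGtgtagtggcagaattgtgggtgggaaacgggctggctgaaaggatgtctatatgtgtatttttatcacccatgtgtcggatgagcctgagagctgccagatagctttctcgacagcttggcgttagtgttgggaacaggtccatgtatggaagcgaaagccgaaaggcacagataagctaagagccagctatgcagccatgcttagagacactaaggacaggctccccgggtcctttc
Slc12a1: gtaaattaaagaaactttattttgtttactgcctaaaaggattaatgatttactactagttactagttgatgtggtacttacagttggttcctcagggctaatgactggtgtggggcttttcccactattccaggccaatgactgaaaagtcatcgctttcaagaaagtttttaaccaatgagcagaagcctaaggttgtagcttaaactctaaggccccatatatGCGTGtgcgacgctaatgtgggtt
The core was searched in the whole RefSeq window of 250 bases before and 50 after the start site, on both strands. It was found in 43.8% of all 32850 such windows of the mouse and, counted by gene, in 46.7% of genes. Azgp1 had 0 matches, Lcor had 3, Slc8a1 had 1 and Slc12a1 had 1. Of the 12 called genes with the largest rises (at a mean count of at least 50 and leaving out predicted gene models and RIKEN clones), which are described below with the 12 largest falls, 7 held at least 1 match (58.3%), and of the 12 falls 4 of 10 with a promoter did (40%). Over all called genes with a promoter, 53 of 77 called higher (68.8%) and 14 of 29 called lower (48.3%) held one. The 46.7% covers all genes with a RefSeq promoter, also those not tested here. A share over the tested genes was not taken, so that the shares of called genes have no matched yardstick. Of 40 HIF target and glycolysis genes, 35 matched a RefSeq promoter and 33 of these held the core (94.3%). A match describes letters only and does not show that a factor binds there.

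Genes of sodium, bicarbonate and calcium handling along the nephron were among those that rose. Slc8a1, which encodes the sodium-calcium exchanger on the basolateral side of the distal nephron, had normalized counts of 311, 287 and 332 in con and of 851 and 925 in VHLΔPT/STZ. Both pools stood more than 2-fold above every con library, and the gene rose by 1.52 (log2, standard error 0.13, adjusted p = 0.00864). Slc8a1 (chromosome 17 from 81373105 to 81738377) was called in 8 of the 9 fits that left out a library, where its adjusted p reached 0.0524 at most, and stood at 1.16 (adjusted p = 0.0743) with the length trend subtracted. No other called gene but Azgp1 held in more than 2 of the 9.

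Slc12a1, the sodium-potassium-chloride cotransporter of the thick ascending limb, had 9710, 11999 and 10789 in con against 18405 and 20711 in VHLΔPT/STZ and rose by 0.86 (standard error 0.13, adjusted p = 0.0363). Ptger3, a prostaglandin E2 receptor of the same segment, rose by 0.81 from 825, 867 and 1038 to 1599 and 1570.3. Umod, which encodes the uromodulin secreted by this segment, was at 52812, 59262 and 59262 in con and at 68277 and 52812 in VHLΔPT/STZ (0.07, adjusted p = 0.836). Of 12 genes of the thick ascending limb tested, 2 passed, both higher, where 0.935% of all genes tested passed higher. The median change of the list was 0.19, against -0.01 over all genes tested.

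Wnk1, a kinase that regulates salt cotransporters, rose by 0.79 (adjusted p = 0.0292) from 6633, 6678 and 6308 to 12205 and 10518, and stood at 0.39 (adjusted p = 0.0961) with the length trend subtracted. Of 22 genes of the distal convoluted tubule and collecting duct, only Slc8a1 and Wnk1 passed, both higher, where 0.935% of all genes tested passed higher. The median was 0.33, and 18 of the 22 had a positive change. With an unadjusted p below 0.05, 10 stood higher and 1 lower, where all genes tested gave 12.6% and 12.2%. Calb1, a calcium buffer of the distal convoluted tubule, was at 6948, 6948 and 11692 in con and at 13988 and 22269 in VHLΔPT/STZ, without overlap, but did not pass (1.09, adjusted p = 0.0662). Of this list, 12 stood higher and 1 lower without overlap, where all genes tested gave 19% and 20.4%. Slc4a4, the sodium-bicarbonate cotransporter through which the proximal tubule returns bicarbonate to the blood, rose by 0.80 (adjusted p = 0.0363), with 14788, 16462 and 13492 in con and 24563 and 27373 in VHLΔPT/STZ. In bulk cortex, more or fewer cells of a segment and more or less RNA per cell cannot be told apart.

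**Figure D3:**
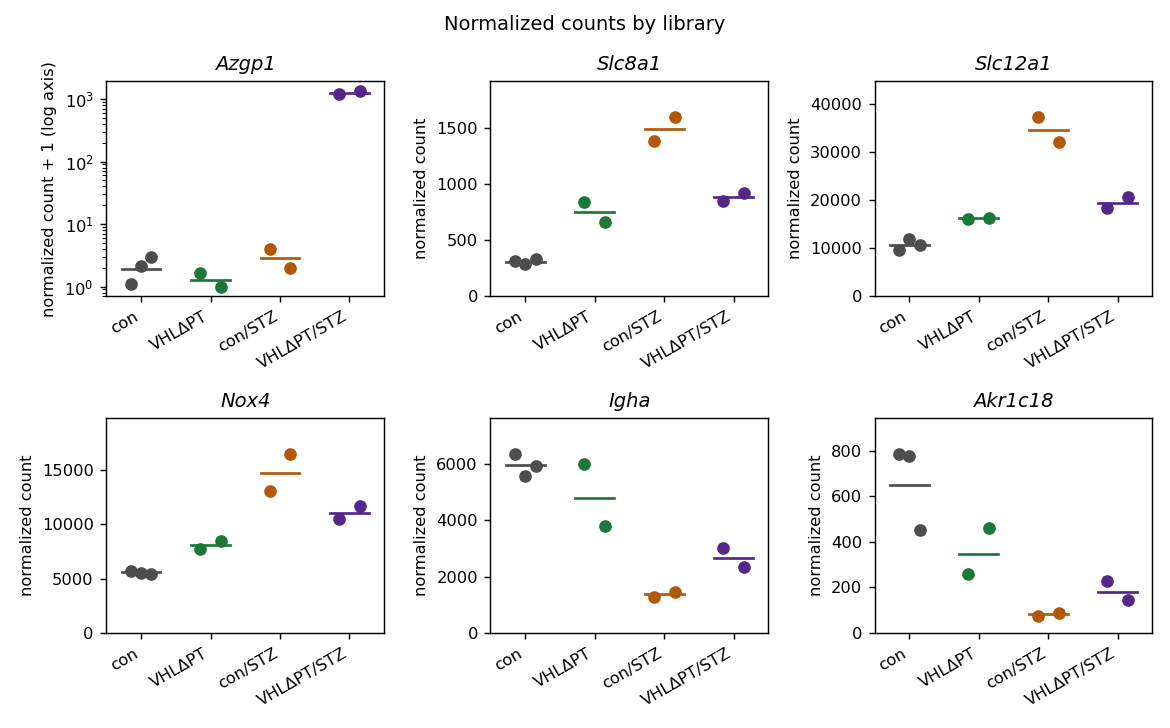
Normalized counts (y axis) of 6 genes in each library of the 4 groups (x axis), with a point per library and a line at the geometric mean of the group. Azgp1 is drawn as normalized count + 1 on a log axis and is high only in both VHLΔPT/STZ libraries, whereas the 2 VHLΔPT/STZ libraries lie between con and con/STZ for Slc8a1, Slc12a1, Nox4, Igha and Akr1c18.

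Other transporters rose as well. Slc38a2, an amino acid transporter induced by hypertonic stress and amino acid shortage, was at 1407, 1079 and 1381 in con and at 2150.1 and 3578 in VHLΔPT/STZ (1.12, adjusted p = 0.0463). Abca13, a large ABC transporter, rose by 1.10 from 1507, 2115 and 1963 to 4059 and 3846, and Mfsd4a, a solute carrier of the major facilitator family, by 1.00 from 561, 630.2 and 546 to 1079 and 1236.

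Among 20 genes of osmotic and oxidative stress tested, 3 passed, all higher, where 0.935% of all genes tested passed higher. Nox4, a renal NADPH oxidase that makes hydrogen peroxide, had 5734, 5547 and 5442 in con and 10492 and 11636 in VHLΔPT/STZ and rose by 0.99 (adjusted p = 0.0253, standard error 0.12). Nfat5, which drives the transcriptional response to hypertonicity, rose by 0.76 (adjusted p = 0.0453) from 696, 967 and 813 to 1421 and 1348, and stood at 0.41 (adjusted p = 0.128) with the length trend subtracted. Slc5a3, its known target and the transporter of the osmolyte myo-inositol, rose by 0.88 (adjusted p = 0.0253) from 1816, 1992 and 1909 to 3791 and 3226. Slc5a3 lies within Mrps6 on the same strand, so that reads of these genes may have been split between them. The median of the list was 0.11, and 0.01 with the length trend subtracted. With an unadjusted p below 0.05, 4 members stood higher and 3 lower, where all genes tested gave 12.6% and 12.2%. The lower ones were Cyba, Sod1 and Txn1. Cyba, a subunit of NADPH oxidases, was at 10698, 10561 and 12067 in con and 8444 and 8444 in VHLΔPT/STZ (-0.39, adjusted p = 0.0661). The study had named Nox4, Nfat5 and Slc12a1 from these libraries, so that their direction here is no independent evidence.

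The remaining genes of the 12 largest rises encode other kinds of protein. Lcor, a corepressor of nuclear receptors, was at 29.9, 51.2 and 29.2 in con and at 178 and 97.4 in VHLΔPT/STZ, the largest of these rises after Azgp1 (1.86, standard error 0.31, adjusted p = 0.0445). Its VHLΔPT/STZ pools differed from each other by more than the range of con. Lmbrd2, a membrane protein, was at 299.8, 348 and 242 in con and at 976 and 567 in VHLΔPT/STZ (1.34). Cpeb4, which controls translation through the poly(A) tail, rose by 1.19, the RNA-binding gene Zc3h12c by 1.10 and Arhgap5, a GTPase-activating protein, by 1.05. Zc3h12c was the most even of these, with 337, 427 and 322 in con and 769.6 and 769.8 in VHLΔPT/STZ. Plppr4, which is best known from synapses, rose by 1.36 from 36.8, 37.3 and 37.6 to 88.5 and 107.

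Genes of a list of basement membrane, integrin and junction proteins stood higher. Of 31 tested, 3 passed, all higher, where 0.935% of all genes tested passed higher. With an unadjusted p below 0.05, 16 of the list stood higher and 0 lower, where all genes tested gave 12.6% and 12.2%. The median change was 0.33. Itgav, the alpha-V integrin, had 1895, 1887 and 1932 in con and 3083 and 3548 in VHLΔPT/STZ and rose by 0.80 (standard error 0.10, adjusted p = 0.0253). Itga1, a collagen-binding integrin, rose by 0.66 and Tjp1, the tight junction protein ZO-1, by 0.72. Col4a5, a chain of the glomerular collagen IV network, was at 593, 702 and 683 in con and at 983 and 974 in VHLΔPT/STZ, without overlap, but did not pass (0.57, adjusted p = 0.0510), and nor did Nid2 (0.61, adjusted p = 0.0507). Of this list, 21 stood higher and 0 lower without overlap, where all genes tested gave 19% and 20.4%. The study had named Tjp1, Nid2, Lamc1, Col4a3, Col4a5, Itgb8 and Vcl from these libraries. Their direction here is therefore no independent evidence. The members had a median length of 8191 bases, and with the length trend subtracted the median of the list was 0.19 and Itga1 stood at 0.32 (adjusted p = 0.307).

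Of 15 podocyte genes tested, with a median of 0.37, only Cd2ap, an adaptor of the slit diaphragm, passed, and it rose by 0.51 (adjusted p = 0.0463). With the length trend subtracted, the median was 0.18 and Cd2ap stood at 0.21. Nphs1, which encodes nephrin, stood at 0.12 (adjusted p = 0.635). Of 15 endothelial genes, only Ptprb, a phosphatase of blood vessels, passed, and it rose by 0.72 (adjusted p = 0.0453) from 864, 891 and 732 to 1514 and 1219, and stood at 0.45 with the length trend subtracted. Pecam1, the general endothelial marker, stood at 0.05 (adjusted p = 0.738). Among 22 genes of fibrosis and fibroblasts and 19 of tubular injury and repair, 0 passed in either list (limma), with 2 and 1 higher with an unadjusted p below 0.05. Of all genes tested, 12.6% stood higher at that unadjusted p. Havcr1, which encodes the injury marker KIM-1, was at 901, 815 and 1003 in con and at 428 and 358 in VHLΔPT/STZ (-1.20, adjusted p = 0.245), and Spp1, osteopontin, at 13531, 9351 and 19651 in con and at 21128 and 50342 (1.27, adjusted p = 0.199).

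HIF target genes, which the deletion of Vhl addresses most directly, did not pass the test in whole cortex. Of 40 HIF target and glycolysis genes, 0 passed (limma), while 14 stood higher and 2 lower with an unadjusted p below 0.05, where all genes tested gave 12.6% and 12.2%. The median change was 0.23, 0.10 in VHLΔPT/STZ 1 and 0.41 in VHLΔPT/STZ 2, so that the second pool carried most of it. Pdk1, the kinase that diverts pyruvate from mitochondria, had the lowest p of the list, with 572, 796 and 915 in con and 1165 and 1889 in VHLΔPT/STZ (0.99, adjusted p = 0.0705). Hk1, a hexokinase, was at 2805, 2850.4 and 2850.4 in con and at 3328 and 3829 (0.33, adjusted p = 0.0736). Slc2a1, the glucose transporter GLUT1, was at 1019, 976 and 1140.3 in con and at 1238 and 1446 (0.36, adjusted p = 0.127). For these 3 the groups did not overlap. Of this list, 12 stood higher and 2 lower without overlap, where all genes tested gave 19% and 20.4%.

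Vegfa, the vascular growth factor, was at 3972, 3730.1 and 3206 in con and at 3708 and 3972 in VHLΔPT/STZ (0.08, adjusted p = 0.680). For the proteins VEGF and GLUT1, the study reported a mosaic staining of the proximal tubule in VHLΔPT and VHLΔPT/STZ. RNA of whole cortex does not resolve such cells. Car9, a carbonic anhydrase used as a reporter of HIF activity in tumours, was at 665, 724 and 530.1 in con and lower in both VHLΔPT/STZ pools, at 465 and 288 (-0.79, adjusted p = 0.131). Egln3 and Ankrd37, both induced by HIF, differed more between the pools than between the groups. Egln3 was at 356 to 489 in con and at 446 and 1049.7 in VHLΔPT/STZ, and Ankrd37 at 31.1 to 62.8 and at 61.0 and 278.

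Of 14 genes of the HIF subunits and of oxygen sensing, 1 passed. Hif1a, which encodes HIF-1α, had 1298, 1261 and 1270.1 in con and 2102 and 1789.6 in VHLΔPT/STZ and rose by 0.60 (standard error 0.12, adjusted p = 0.0495). Its transcript also stood at 1647 and 2094 in VHLΔPT and at 2408 and 2248 in con/STZ. VHL acts on the HIF-1α protein, which was not measured in these libraries. By western blot, the study found more nuclear HIF-1α in VHLΔPT and con/STZ than in con. It found less in VHLΔPT/STZ than in VHLΔPT. Epas1, the HIF-2α gene, stood at 0.19 (adjusted p = 0.338) and Egln1, the main prolyl hydroxylase, at -0.06 (adjusted p = 0.706).

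Single genes of the functions of the proximal tubule passed the test. Of 25 genes of proximal glucose and sodium transport, only Slc4a4 passed, and the median was 0.19. With an unadjusted p below 0.05, 7 of them stood higher and 1 lower, where all genes tested gave 12.6% and 12.2%. The 8 proximal tubule markers summed to 1049180 to 1077557 in con and to 802377 and 419119 in VHLΔPT/STZ, mostly through Kap, an androgen-regulated gene of this segment at 789999 in each con library and at 478389 and 137282 in VHLΔPT/STZ. Quantile normalization gives the top-ranked gene the same value in every library, so that the con value says only that Kap ranked first. The drop of the marker sum was not particular to VHLΔPT/STZ, since the sum was 769035 and 444317 in con/STZ. In VHLΔPT it was 1123944 and 766639. Slc5a2, which encodes SGLT2 and whose promoter drives Cre, was at 9465, 8553 and 7361 in con and at 9782 and 9484 in VHLΔPT/STZ (0.19, adjusted p = 0.381). Slc2a2, the basolateral glucose transporter GLUT2, was at 3670.4, 3841 and 3190.0 in con and at 4641 and 6122 (0.58, adjusted p = 0.0569). Of 20 genes of megalin-cubilin endocytosis, Cltc, the clathrin heavy chain, rose by 0.56 (adjusted p = 0.0363) from 6205, 6249 and 5721 to 9125 and 8763. Cubn, which encodes cubilin, stood at 0.65 (adjusted p = 0.0592) and Lrp2, megalin, at 0.54 (adjusted p = 0.101), each with both pools above all con libraries. Of this list, 7 stood higher and 4 lower without overlap, where all genes tested gave 19% and 20.4%. Of 14 genes of gluconeogenesis, Ppargc1a, a coactivator of mitochondrial and gluconeogenic genes, rose by 0.57 (adjusted p = 0.0495).

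The largest unadjusted differences in metabolism were uneven between the pools and did not pass. Among 27 genes of glucuronidation, glutathione and P450 enzymes and 25 of fatty acid oxidation, 0 passed in either list (limma), with 9 and 7 higher and 4 and 3 lower with an unadjusted p below 0.05. All genes tested gave 12.6% higher and 12.2% lower. Ugt1a2, a glucuronosyltransferase that shares its later exons with other Ugt1a genes, was at 10.7, 15.7 and 67.7 in con and at 437 and 5849 in VHLΔPT/STZ (6.08, standard error 1.25, adjusted p = 0.0518), and at 10202 and 9274 in con/STZ. Cyp4a14, a fatty acid omega-hydroxylase controlled by PPARA, was at 727, 430.0 and 1248 in con and at 3077 and 16385 (3.28, adjusted p = 0.0548). In both genes VHLΔPT/STZ 2 was several times higher than VHLΔPT/STZ 1.

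Genes of immune cells were among those that fell. Igha, the constant region of IgA, was at 6371, 5585 and 5943 in con and at 3011 and 2328 in VHLΔPT/STZ and fell by 1.17 (standard error 0.19, adjusted p = 0.0422). Jchain, which joins IgA into dimers, was at 1370.2, 1361 and 1587 in con and at 828 and 559 (-1.08, adjusted p = 0.0463). With the length trend subtracted, Igha stood at -1.05 and Jchain at -0.94. Igkv1-110, a kappa variable segment, fell by 2.41 from 547.5, 670.2 and 351 to 105 and 84.1, and Itgb7, an integrin of lymphocytes that home to mucosa, by 1.13 from 76.3, 71.6 and 88.4 to 38.7 and 32.1. Of 82 immunoglobulin segments tested, 3 passed, all lower (3.66%), where 0.464% of all genes tested passed lower. With an unadjusted p below 0.05, 16 stood lower (19.5%) and 0 higher, where all genes tested gave 12.2% and 12.6%. Variable segments are near-identical copies, so that reads could be shared among them.

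Fcgr4, an activating Fc receptor of myeloid cells, was at 143, 91.9 and 116 in con and at 52.9 and 42.3 in VHLΔPT/STZ and fell by 1.26 (standard error 0.23, adjusted p = 0.0463). It was the only one of 20 macrophage genes to pass, while 12 stood lower and 0 higher with an unadjusted p below 0.05 (12.2% of all genes tested stood lower), and the median was -0.60. The list had a median length of 1634 bases. With the length trend subtracted, its median was -0.41 and Fcgr4 stood at -1.05 (limma, adjusted p = 0.0943). The complement gene C1qa was at 559, 567 and 882 in con and at 377 and 365 (-0.82, adjusted p = 0.0935). Of 14 genes of MHC class II, B and T cells, Jchain passed and 7 stood lower with an unadjusted p below 0.05, with a median of -0.69. That median was -0.63 with the length trend subtracted. The interferon list of 23 genes had a median of -0.62 with 0 passing (limma) and 3 lower with an unadjusted p below 0.05. In that list con 3 was high, with a summed level of 16685 against 4695 and 5318 in the other con libraries. Isg15, a ubiquitin-like protein induced by interferon, was at 74.6, 88.0 and 468 in con and at 45.0 and 72.0 in VHLΔPT/STZ.

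Summed over 5 macrophage markers, the level was 3617, 3399 and 3773 in con and 2698 and 2009 in VHLΔPT/STZ. All 5 stood below every con library in both pools, as 20.4% of all genes tested did. Over the 4 lymphocyte markers in the table it was 58.1, 50.6 and 54.7 against 33.7 and 18.3. In con/STZ the sums were 1943 and 2329 for macrophages and 16.3 and 15.1 for lymphocytes. Whether fewer such cells or less RNA per cell lay behind this cannot be told apart. The 5 markers of fat around the kidney summed to 1572, 12990 and 7078 in con and to 2176 and 8858 in VHLΔPT/STZ, and the 4 of the inner medulla to 2071, 2491 and 3325 in con and to 2817 and 5907. The second VHLΔPT/STZ pool was above all con libraries in the inner medulla sum and within their range in the fat sum, and their part in the results was not tested.

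Among the other genes that fell, Akr1c18, which inactivates progesterone, was at 786, 774 and 453 in con and at 227 and 144 in VHLΔPT/STZ and fell by 1.84 (standard error 0.32, adjusted p = 0.0453). Gm853, known as Ldc-1 and encoding a leucine decarboxylase, fell by 0.89 (adjusted p = 0.0363) from 1706, 2320 and 1748 to 986 and 1065.5. The study had named Gm853 from these libraries.

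Mfsd2a, a transporter of lysophospholipids, fell by 1.18 and Gfra1, a co-receptor of the growth factor GDNF, by 1.21. Tmprss9, a membrane serine protease, fell by 2.16, although its pools were far apart at 133 and 43.4 against 377, 374 and 286 in con. Vill, a relative of villin, fell by 1.16, Spsb2, an adaptor of a ubiquitin ligase, by 1.09, Tlcd2, a membrane protein, by 1.09, and Ang, a secreted ribonuclease, by 1.08. Spsb2 was at 985, 908 and 1034 in con and at 546 and 382 in VHLΔPT/STZ. Ang overlaps Rnase4 on the same strand, so that reads may have been split between them. Of 75 genes of mitochondrial ribosomal proteins, Mrpl44 passed and fell by 0.43 (adjusted p = 0.0453), where 0.464% of all genes tested passed lower. With an unadjusted p below 0.05, 30 of the list stood lower and 0 higher, where all genes tested gave 12.2% and 12.6%. The list had a median of -0.27 and a median length of 2533 bases. With the length trend subtracted, the median was -0.12 and Mrpl44 stood at -0.23.

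Of the remaining lists, few members passed, where 0.935% of all genes tested passed higher and 0.464% lower. Setd7, a histone lysine methyltransferase, was the only one of 45 genes of histone methylation and acetylation to pass and rose by 0.60 (adjusted p = 0.0485) from 371, 398 and 361 to 626 and 518. With an unadjusted p below 0.05, 21 of the list stood higher and 1 lower, where all genes tested gave 12.6% and 12.2%. That list had a median of 0.31 and a median length of 9596 bases, and with the length trend subtracted its median was 0.08 and Setd7 stood at 0.39. Clock, whose product pairs with BMAL1 in the circadian oscillator, was the only one of 19 to pass and rose by 0.70, and stood at 0.43 with the length trend subtracted. Of 29 genes of insulin and mTOR signaling 0 passed (limma). With an unadjusted p below 0.05, 10 of them stood higher and 1 lower, where all genes tested gave 12.6% and 12.2%. There were 0 passing genes (limma) also among 80 subunits of oxidative phosphorylation, 83 cytosolic ribosomal proteins, 22 genes of sterol and fatty acid synthesis, 22 of the unfolded protein response, 23 of proliferation, 17 of the glucocorticoid receptor and 12 of the klotho and phosphate axis. With an unadjusted p below 0.05 these lists held, in that order, 0 higher and 2 lower, 1 higher and 1 lower, 3 higher and 2 lower, 4 higher and 0 lower, 1 higher and 0 lower, 1 higher and 2 lower and 3 higher and 1 lower. All genes tested gave 12.6% higher and 12.2% lower at that unadjusted p. Of the genes the study had chosen on these libraries, 2 of 10 glomerular genes (Tjp1 and Ptprb) and 6 of 15 tubular genes passed, all higher. The tubular ones were Hif1a, Nox4, Nfat5, Slc12a1, Clock and Cltc. Of 6 from its contrast with con/STZ, 2 passed higher (Slc12a1 and Abca13) and 1 lower (Gm853). The direction of all these is no independent evidence, also where such a gene alone passed in its list.

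**Figure D4:**
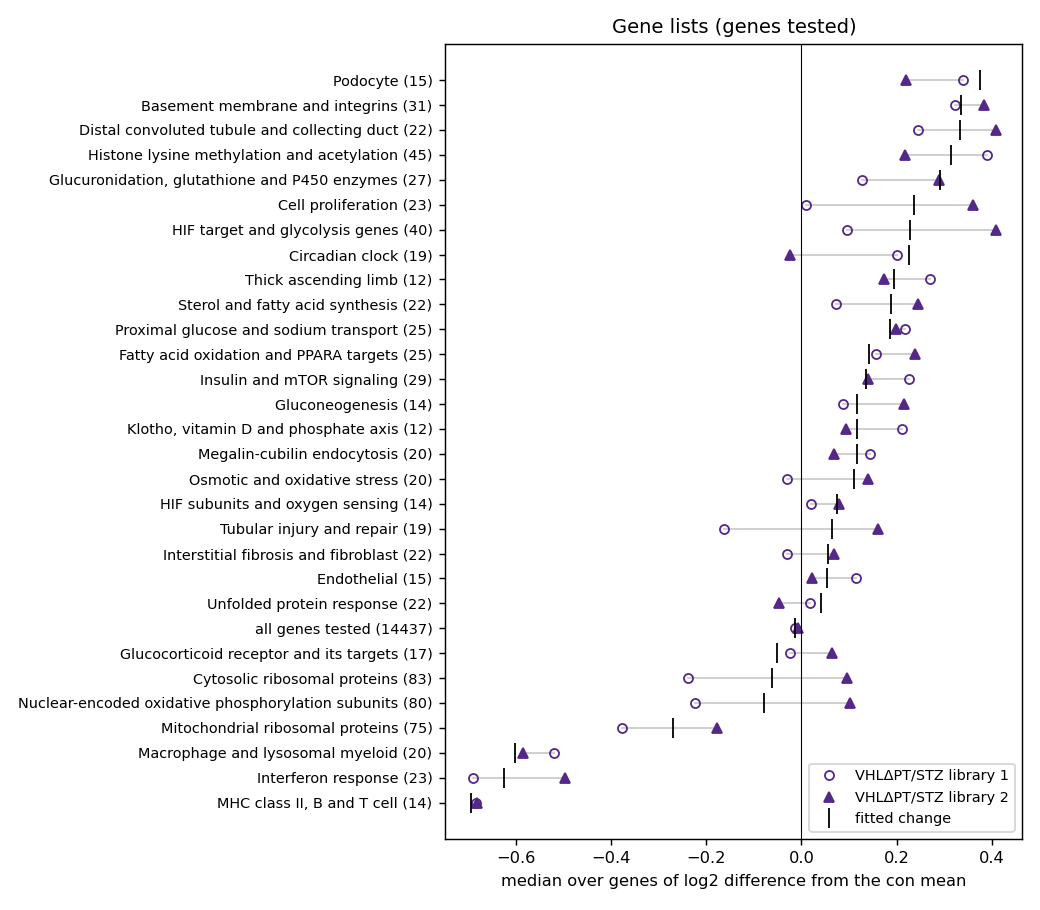
Median log2 difference from the con mean (x axis) over the tested genes of each list (y axis, number of genes in parentheses), for VHLΔPT/STZ library 1 (open circles), library 2 (triangles) and the fitted change (black ticks). Lists of immune genes have medians of -0.60 to -0.69, the basement membrane list 0.33 and all genes tested -0.01.

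The direct comparisons showed where VHLΔPT/STZ stood relative to each alteration alone. Of the 100 genes called higher against con, 99 had a lower mean log2 level in VHLΔPT/STZ than in con/STZ, Azgp1 being the exception, where 49.6% of all genes tested were lower. Of the 46 called lower, 35 stood above con/STZ (76.1%), where 50.4% of all genes tested did. Genes called higher were long and those called lower short. The correlation with length was more positive in con/STZ (0.257 and 0.269) than in VHLΔPT/STZ (0.184 and -0.057). The part of length in these counts was not tested. Except for Azgp1, 0 of these differences from con/STZ passed (limma), and 957 genes in all had an unadjusted p under 0.05. Slc8a1 was at 1387 and 1599 in con/STZ (difference of VHLΔPT/STZ -0.75, standard error 0.14, adjusted p = 0.669), Slc12a1 at 37387 and 32164 (-0.83, adjusted p = 0.608) and Igha at 1280 and 1466 (0.95, adjusted p = 0.700). Gm853 was at 463 and 500.3 in con/STZ, below both VHLΔPT/STZ pools (1.09, adjusted p = 0.260).

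Against VHLΔPT, 64 of the 100 genes called higher stood above and 44 of the 46 called lower stood below, where 49.7% and 50.3% of all genes tested did. Calls against con use the same VHLΔPT/STZ libraries as this comparison. Again 0 but Azgp1 passed (limma). Slc8a1 was at 841 and 666 in VHLΔPT (difference of VHLΔPT/STZ 0.25, adjusted p = 0.526) and Slc4a4 at 25686 and 26408 (-0.01, adjusted p = 0.990). In 2 genes that fell, chosen after their values were seen, VHLΔPT lay with con. Ang was at 265 and 243 in VHLΔPT against 277, 265 and 243 in con and 106 and 142 in VHLΔPT/STZ, and Vill at 2545 and 2370.2 in VHLΔPT against 1266 and 845 in VHLΔPT/STZ. Fcgr4 was at 52.7 and 50.1 in VHLΔPT, a level like that of VHLΔPT/STZ (-0.12, adjusted p = 0.880). These comparisons with con, con/STZ and VHLΔPT share libraries and are not independent of each other.

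**Figure D5:**
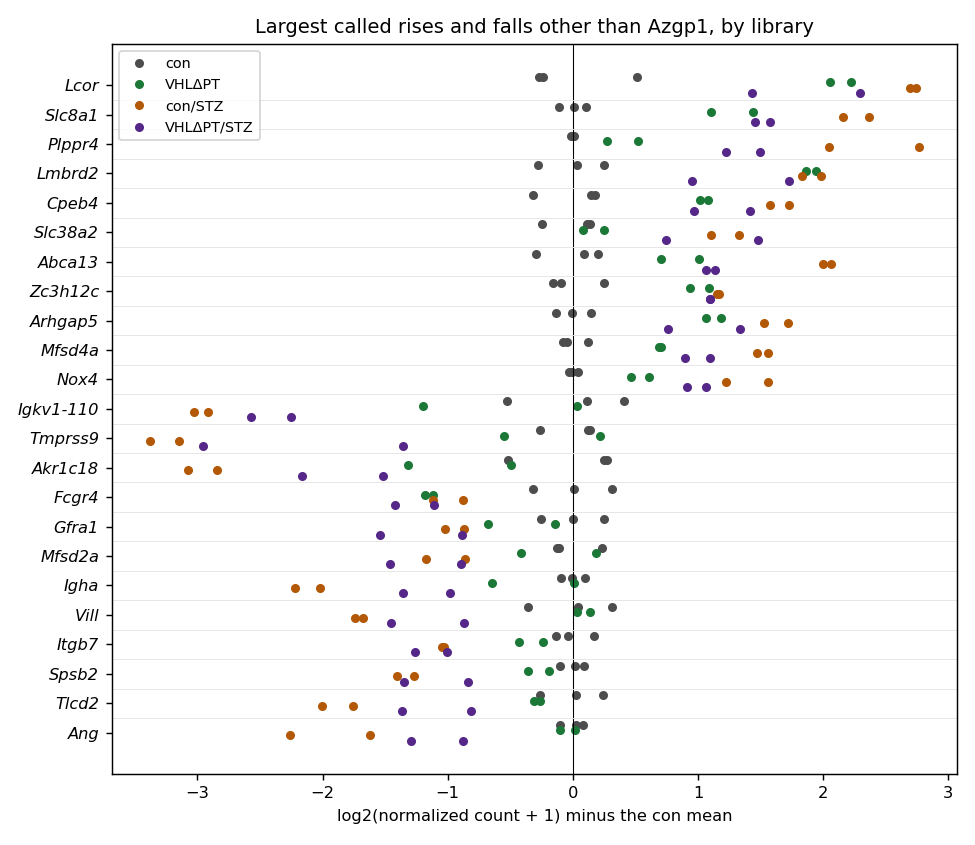
Log2(normalized count + 1) of each library minus the con mean (x axis) for the 11 largest called rises other than Azgp1 and the 12 largest called falls under the same rule (y axis), with con in grey, VHLΔPT in green, con/STZ in orange and VHLΔPT/STZ in purple. For Slc8a1, Abca13 and Mfsd4a both VHLΔPT/STZ libraries lie between con and con/STZ, and for Ang and Vill the VHLΔPT libraries lie with con.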

How the data were processed

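Poly(A) RNA of mouse kidney cortex was read as single ends with a stranded kit. Per the submitters' processing notes and the methods of the study, reads were trimmed, aligned to GRCm38 with STAR 2.5.2b and counted per gene with featureCounts 1.5.2. The deposited values are a signal per gene, counts that the authors quantile normalized. Only 14.89% of them are whole numbers (within 1e-06), so that reads were not recovered and no count test was run. The tool and step of the quantile normalization and the strand setting of the counting were not given in the sources used. Deposited columns of fold changes and p-values were not used.

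Values were tested as log2(value + 1) with limma 3.58.1 (R 4.3.3, empirical Bayes with trend, 5 residual degrees of freedom, Benjamini-Hochberg adjustment) on all 9 libraries, over genes with a mean of at least 10. The tests were run on simulated data first. Gene annotation was from GENCODE M21. Named were the 12 largest called rises and falls with a mean of at least 50 (no overlap between groups, predicted gene models and RIKEN or clone names left out), and members of lists that passed or had the lowest p. Other list members shown for their known role were chosen after their values were seen. Members and lists were chosen with earlier results of these data known. Alternatives were other pseudocounts, filters, scalings, variance models, sample sets and a replicate block, a correction for gene length, and each library left out in turn.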

Additional observations from a re-analysis of the deposited data

Results flagged for a closer look

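For 10 of the 24 named genes, the effect of STZ differed between Vhl-deleted and control mice by a test of the difference itself, the genotype-by-STZ interaction in limma over all 9 libraries (adjusted p under 0.05, as for 248 of 14437 genes). The named genes had been picked on the same con and VHLΔPT/STZ libraries and the same estimate of spread. The 10 of 24 is therefore not comparable with the share over all genes. For Azgp1 the interaction was 9.39 on the log2 scale (adjusted p = 0.0212), and it passed in 6 of the 9 fits that left out a library, with adjusted p from 0.0174 to 0.113.

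The other interactions were negative, so that the difference between STZ and no STZ was more positive in control than in Vhl-deleted mice. They were -2.9985 for Lcor, -2.47 for Lmbrd2, -2.02 for Slc8a1, -1.79 for Abca13, -1.71 for Arhgap5, -1.51 for Cpeb4, -1.22 for Mfsd4a, -1.07 for Zc3h12c and -0.94 for Nox4, with adjusted p from 0.0212 to 0.0407. These 9 passed in 2 or 3 of the 9 fits that left out a library, with adjusted p of up to 0.162. The refits without a library were chosen after seeing the data. These 9 genes are long, from 6369 exon bases (Cpeb4) to 19737 (Abca13), against a median of 4307 over all genes tested. The correlation of length with the deviation of a library was -0.455 to -0.19 in con and 0.257 and 0.269 in con/STZ. The interaction was not fitted with the length trend subtracted, so that the part of length in it was not tested.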

How the results depend on the processing

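The count of genes called in VHLΔPT/STZ against con depended on the processing. From 146 (100 higher, 46 lower), it went to 83 (60 and 23) without a filter on low values, 231 (82 lower) with a mean of at least 50, and 1141 (613 and 528) with an unadjusted p. It was 1 (1 and 0) without a variance trend, 4 (4 and 0) with library weights, 2 (1 and 1) with the length correction and 3 (2 and 1) with the fit limited to the groups compared. Leaving out 1 library gave 1 to 421 calls, 1 to 189 higher and 0 to 232 lower, the highest without VHLΔPT/STZ 1 and the lowest without con 1. Where 0 or few were called with limma, 2648 to 3627 genes had an unadjusted p under 0.05.

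Against con/STZ, 1 gene was called, 2 with a pseudocount of 10, 294 with an unadjusted p, 0 among genes with no zero in any library, which leaves out Azgp1 (1041 at an unadjusted p under 0.05 with limma), and 0 to 3 without a library. Against VHLΔPT, 1 was called, 778 with an unadjusted p, 0 among genes with no zero (1730 at an unadjusted p under 0.05 with limma), and 0 to 211 without a library, 211 without VHLΔPT/STZ 1 and 0 without VHLΔPT/STZ 2.

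The replicate block left 1 call (1 higher, 0 lower) against con, Azgp1 (9.70, adjusted p = 0.0195). Same-numbered libraries correlated at -0.109 to 0.273, so that the numbers were not taken to pair them. Over 835 alternatives of 44 named changes, 0 reversed, 272 kept their side of the threshold and 563 lost the call. Of 873 alternatives of 46 list medians, 98 moved by more than the spread between replicates. The causes were not tested. Pools of 2 mice and unknown depth limit every value.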
